A study of Mus musculus with 6 samples.

Results

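The complement genes described here are 9, C1s1, C1s2, C1ra, C1rb, C1rl, Serping1, C3, C4b and Cfb, picked by gene name from the 34718 entries of a deposited count table. They make up 10 entries, because C1s2 is listed under 2 identifiers whose positions overlap. Complement is a system of plasma proteins that tags microbes and dying cells and that hepatocytes supply for most of the body. In the classical pathway the proteases C1r and C1s are held in the C1 complex, and once it has bound its target C1r activates C1s, which cleaves C4 and C2. Serping1, the C1 inhibitor, removes both proteases from the complex. The alternative pathway uses factor B, the product of Cfb, and both routes meet at C3, the central component. Each C1 protease gene is duplicated in the mouse: C1ra and C1s1 are the copies known from liver, whereas C1rb and C1s2 are known mainly from tissues of the male reproductive tract. C1rl encodes a related protease.

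RNA was sequenced from Hepa1-6, a mouse hepatoma line grown in culture, in 3 control libraries titled shNC and 3 Zfp207 knockdown libraries titled shZfp207. Zfp207 is the mouse counterpart of ZNF207, a zinc finger protein that binds the spindle checkpoint protein BUB3. The labels give neither the number of hairpins nor whether replicates came from separate cultures, so the p-values describe the spread among these libraries alone, and that spread may be technical. In such bulk RNA fewer expressing cells and less RNA per cell cannot be told apart. The genes were chosen with the contrast of control and knockdown known. Their fold changes, and whether they passed the threshold of the fit over all genes, are therefore given as a description without p-values. Values listed for a group are in the order of replicates 1, 2 and 3.

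The libraries held 11933736 to 16248346 counts. Zfp207 itself was measured at 141.4, 198.0 and 216.8 CPM (counts per 1000000 counts of the library) in the controls and at 48.0, 48.1 and 46.8 CPM after knockdown, so that no knockdown library reached a control library. Control replicate 1 stood apart: the mitochondrial genome supplied 10.5% of its counts, 2.89% and 2.67% of those of the other controls, and 5.60% to 6.00% in the knockdown libraries. Values without it are given beside the results it moves most. Of 11 hepatocyte markers all had counts in some library, with summed levels of 617 to 928 FPKM (a level per length, from fragments per kilobase) in control and 1516 to 1609 FPKM in knockdown libraries. Alb and Afp, the albumin and alpha-fetoprotein genes, made up most of that sum and rose (edgeR adjusted p = 0.0316 and 0.00480), whereas Trf, the transferrin gene, fell from 152.8 to 103.2 FPKM (edgeR adjusted p = 0.0155). Apoa2 was at 0.779 FPKM in control and 0.159 FPKM in knockdown cells, Hnf4a at 44.1 and 44.2 FPKM, and Ttr, Ahsg and Serpina1a had at most 5 counts in any library. Of 10 macrophage markers 5 had at most 5 counts in any library, with Clec4f, Marco and Tyrobp at 0. The sum of all 10 was 20.6 to 23.9 FPKM in control and 24.2 to 24.8 FPKM in knockdown libraries. Most of it came from Cd14 and Cd68. Csf1r rose from 2, 6 and 14 to 52, 48 and 45 counts (edgeR adjusted p = 0.0117). It passed the filter on low counts only through the knockdown libraries, which favours a difference. Ptprc, below that filter, went from 1, 1 and 0 to 8, 5 and 5 counts. Cd68 was lower in every knockdown library without passing the threshold (edgeR adjusted p = 0.142). Of 8 fibroblast markers 5 had at most 5 counts in any library. The sum was 968 to 1094 FPKM in control and 1285 to 1325 FPKM in knockdown libraries, almost wholly from Dcn (edgeR adjusted p = 0.0968). Pdgfra fell from 1.71 to 1.16 FPKM (edgeR adjusted p = 0.0181). The 7 endothelial markers summed to at most 0.302 FPKM. The part of these marker differences in the results was not tested.

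The paralogs are close enough in sequence that short reads cannot always be placed. The C1s1 and C1s2 coding sequences, of 2082 and 2064 bases, differed at 90 of 2064 aligned bases and were 95.6% identical, with a longest identical run of 229 bases. C1ra and C1rb, of 2121 and 2118 coding bases, differed at 42 of 2118 aligned bases and were 98.0% identical, with a longest identical run of 757 bases. By the same alignment C1ra and C1rl, of 2121 and 1446 coding bases, were 73.4% identical over the 1385 bases that aligned. The stretches of 120 coding bases printed here, from the GENCODE M21 transcripts, are for each pair the first aligned window without a gap whose number of differences is the median over all such windows. Capitals mark the bases at which the paralogs differ, and a read that covers none of them fits both. The C1s stretch runs from coding base 262 to 381 in C1s1 and from 244 to 363 in C1s2, counted from 1 at the start codon, and holds 4 differences. The C1r stretch runs from coding base 1 to 120 in both genes and holds 1.
C1s1: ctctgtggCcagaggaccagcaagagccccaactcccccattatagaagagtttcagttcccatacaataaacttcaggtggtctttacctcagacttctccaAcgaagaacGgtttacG
C1s2: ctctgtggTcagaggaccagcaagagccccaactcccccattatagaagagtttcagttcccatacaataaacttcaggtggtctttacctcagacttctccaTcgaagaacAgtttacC
C1ra: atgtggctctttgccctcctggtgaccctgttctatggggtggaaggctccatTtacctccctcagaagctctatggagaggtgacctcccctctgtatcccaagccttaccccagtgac
C1rb: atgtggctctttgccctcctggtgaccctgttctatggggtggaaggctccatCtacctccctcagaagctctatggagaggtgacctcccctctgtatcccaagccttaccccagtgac

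Over the whole transcripts, 13.4% of the 150-base windows of C1s1 and 3.18% of those of C1s2 occurred exactly in a transcript of another gene, on either strand. The 375 C1s1 windows lay in C1s2 or in Gm16567, a gene on the opposite strand, and the 80 C1s2 windows in C1s1 alone. The value of 13.4% is therefore not the share that C1s1 has in common with C1s2. At 50 bases the shares were 39.0% and 26.9%, with Gm16567 among the matches of both genes. For C1ra and C1rb they were 26.3% and 32.6% at 150 bases and 50.8% and 60.6% at 50 bases. No window of C1rl, C3 or Serping1 occurred elsewhere. For Cfb 80.7% of the 150-base windows also lay in Gm20547, a gene model that joins C2 and Cfb on the same strand, and for C4b 8.26% lay in its paralog C4a. No source used here gives the read length or the treatment of reads with several possible origins, so the counts of both pairs, of C4b and of Cfb carry this uncertainty.

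The 250 bases before the annotated starts of C1s1 and C1s2 gave only a short alignment, in contrast to their coding sequences. Sequence outside these windows was not compared, so the promoters as a whole are not shown to be unlike. In 250 bases before the RefSeq start (GRCm38.p6) the best local alignment of C1s1 with C1s2 spanned 11 bases, from either of the 2 C1s1 starts. C1ra and C1rb aligned over 99 bases with 93 identical. The aligned block ended 1 base before the RefSeq start of C1ra and 152 bases before that of C1rb, so that these starts are annotated at different places of a common stretch. The C1ra window ends at 124512620, whereas the GENCODE gene begins at 124512405. The C1ra side of the block therefore lies within the gene as GENCODE places it. The last 150 bases before the start are shown for C1s1 (chr6:124542360-124542509, minus strand), for C1s2 (chr6:124636086-124636235, minus strand) and for C3 (chr17:57228137-57228286, minus strand), the only member past the threshold downward. Capitals in C3 mark a match to TTGCNNAA, a motif of the C/EBP factors that act in the acute-phase response, which begins 45 bases before the start.
C1s1: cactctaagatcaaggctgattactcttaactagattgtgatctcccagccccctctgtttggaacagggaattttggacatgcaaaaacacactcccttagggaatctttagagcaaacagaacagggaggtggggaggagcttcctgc
C1s2: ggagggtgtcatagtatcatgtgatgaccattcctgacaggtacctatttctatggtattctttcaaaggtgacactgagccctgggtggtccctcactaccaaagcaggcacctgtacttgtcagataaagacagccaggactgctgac
C3: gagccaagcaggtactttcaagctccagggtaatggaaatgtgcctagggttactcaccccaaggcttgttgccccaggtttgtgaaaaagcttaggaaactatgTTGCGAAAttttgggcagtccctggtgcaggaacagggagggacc
TTGCNNAA, searched on both strands in the 250 bases before the start, occurs in 9.56% of 32851 RefSeq promoters. Of the 6 members with a RefSeq promoter entry, C1s1 (from one of its starts), C1rb, C1rl and C3 had it. TTCNNNGAA, the motif of the STAT factors downstream of interleukin 6, occurs in 7.02% of promoters. It was found for C1rb, beginning 119 bases before the RefSeq start. The C1rb window ends at 124570429, whereas the GENCODE gene begins at 124570294. Both the STAT and the C/EBP match of C1rb therefore lie within the gene as GENCODE places it. TATAAA, in 12.4% of promoters, was in none of these windows. A match is a description of the letters only.

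Among the 9 genes the level per length spanned from well expressed to barely detected. In control cells C1s1 had 23.5 ± 4.55 FPKM, C3 17.1 ± 6.93, C1ra 13.4 ± 0.413, Cfb 8.89 ± 4.21 and C1rl 4.03 ± 0.704 FPKM (SD, n = 3 each). C1s2 and C1rb, the reproductive tract copies, had 0.708 ± 0.416 and 0.243 ± 0.0283 FPKM. In knockdown cells the order was C1s1 with 21.4 ± 6.73, C1ra with 19.4 ± 0.533, Cfb with 18.4 ± 0.848, C3 with 7.18 ± 0.188, C1rl with 5.97 ± 0.417 and C1s2 with 5.42 ± 0.401 FPKM. C1rb followed with 0.778 ± 0.113 FPKM. In control cells the libraries of C3 overlapped with those of C1s1, C1ra and Cfb, and those of Cfb with C1ra. In knockdown cells C1s1, C1ra and Cfb overlapped, as did C1rl and C1s2, so these neighbours did not differ beyond their spread. The length by which the authors divided was 5126 bases for C1s1 and 4812 for Cfb, against longest GENCODE transcripts of 2946 and 2751 bases. For C1ra the lengths were 2988 and 2981 bases. The place of Cfb in the order depends on its longer gene model, while a shorter length would only raise C1s1, which is first in both groups.

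Serping1 and C4b went against the description of these genes as made by the hepatoma cells. Serping1 had 6, 2 and 5 counts in control replicates 1 to 3 and 3, 3 and 1 in the knockdown replicates. C4b, the fourth component that C1s cleaves, had 2, 6 and 1 counts in control and 1, 0 and 1 in knockdown libraries. A count of 0 allows up to 3 counts, which is 0.185 to 0.251 CPM in these libraries by counting error alone. No difference between groups was detectable at this depth, and both genes fell below the filter on low counts. C4a, the other C4 gene, had 3 to 13 counts per library. Transcripts of the C1 proteases were thus measured in cells where those of their inhibitor and of their substrate C4 were close to the floor.

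With both groups in one fit, 8 entries could be tested, and 4 were higher, 1 was lower and 3 did not pass the threshold of an edgeR adjusted p of 0.05. Over all genes 20.6% of 11975 passed, 9.92% upward and 10.7% downward. DESeq2 called 27% of the genes and 6 of the 8 entries, and a fit with the replicate number as a block called 8.24% and 2 entries. Without control replicate 1 the share over all genes was 52.1% of 12108, 26.1% upward and 26.1% downward, and 6 entries passed. Of the 8 entries, C1rb and the second C1s2 entry passed the filter only through the knockdown libraries. The counts of C1rb were high there, so the filter favoured a difference. The groups of the second C1s2 entry overlapped, and it did not pass the threshold. The groups did not overlap in CPM at 6 of the 8 entries, against 44.9% of all genes tested, 21.5% upward and 23.4% downward. Since the contrast was known when the genes were chosen, nothing is read from these shares.

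**Figure D1:**
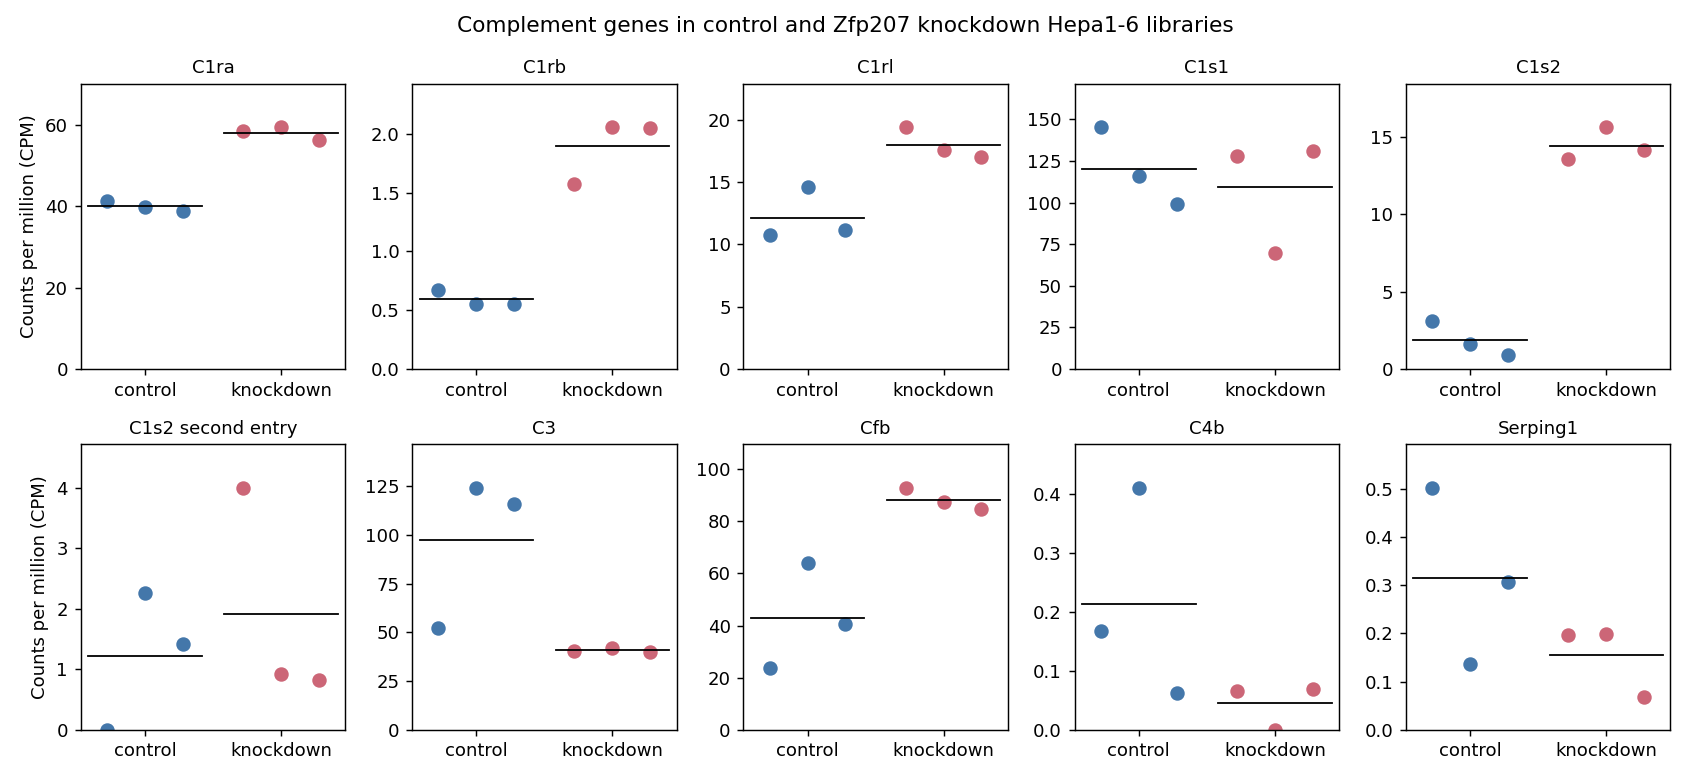
CPM of the 10 complement entries, each panel with its own linear axis from 0; points are single libraries (control replicates 1 to 3 in blue, knockdown replicates 1 to 3 in red, left to right) and lines are group means. C1ra, C1rb, C1rl, C1s2 and Cfb lie higher and C3 lower in every knockdown library, C1s1 overlaps between groups with knockdown replicate 2 lowest at 69.7 CPM, and C4b and Serping1 stay near 0.

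C1ra, which encodes the protease that activates C1s, varied little within a group. Its controls stood at 41.2, 39.8 and 38.8 CPM and its knockdown libraries at 58.5, 59.4 and 56.3 CPM. The control libraries differed by far less than the step between the groups. After TMM scaling the means were 39.8 ± 1.04 and 58.4 ± 1.53 CPM (SD, n = 3 each), a 1.47-fold difference (log2 fold change 0.55, SE 0.085) past the threshold. Control replicate 1 did not stand apart at this gene, and without it the log2 fold change was 0.57. C1ra (ENSMUSG00000055172; mm10 chromosome 6, 124512405 to 124523443, plus strand) overlaps no exon of another GENCODE gene. With knockdown replicate 2 or 3 left out it did not pass, at log2 fold changes of 0.54 and 0.57.

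C1rb, the second C1r gene (ENSMUSG00000098470, chromosome 6, 124570294 to 124581171, plus strand), was counted 8, 8 and 9 times in the controls and 24, 31 and 30 times after knockdown. Every knockdown library thus held more than any control library, at counts that remained low. The means were 0.588 ± 0.0642 and 1.91 ± 0.287 CPM (SD, n = 3 each), with a log2 fold change of 1.69 (SE 0.291) past the threshold. As for C1ra, it did not pass with knockdown replicate 2 or 3 left out, at log2 fold changes of 1.62 each, nor with the replicate block (1.68).

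As a share of C1ra and C1rb counts together, C1rb made up 1.60%, 1.36% and 1.41% in the controls and 2.62%, 3.34% and 3.51% after knockdown. The difference of means was 1.70 percentage points. Exact 95% (Clopper-Pearson) intervals, which cover counting error only, ran from 0.693% to 3.13% in control replicate 1 and from 1.69% to 3.88% in knockdown replicate 1. The groups' values did not overlap, but the intervals of single libraries did. The part of reads placed at the other copy was not tested.

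C1rl, the C1r-like protease gene (ENSMUSG00000038527, chromosome 6, 124493113 to 124510643, plus strand), stood at 10.7, 14.6 and 11.1 CPM in the controls. Its knockdown libraries reached 19.4, 17.6 and 17.0 CPM, all above the controls. The means were 12.1 ± 2.20 and 18.1 ± 1.16 CPM (SD, n = 3 each), with a log2 fold change of 0.58 (SE 0.158) past the threshold. That is 1.49-fold, close to the 1.47-fold of C1ra. It passed in 2 of the 6 fits that left out 1 library, those without control replicate 1 (0.49) or 2 (0.74), and did not pass with upper-quartile scaling, with the replicate block or with all genes of at least 1 count tested.

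C1s1, the main C1s gene (ENSMUSG00000038521, chromosome 6, 124530345 to 124542359, minus strand), was the most abundant of the C1 protease genes. Its controls stood at 145.4, 116.3 and 99.3 CPM and its knockdown libraries at 128.0, 69.7 and 130.8 CPM. The groups overlapped, and knockdown replicate 2 was the lowest of all 6 libraries. The means were 119.8 ± 22.5 and 110.0 ± 34.5 CPM (SD, n = 3 each), with a log2 fold change of -0.12 (SE 0.260) that did not pass. The sign rested on single libraries, since the value was 0.03 without control replicate 1 and 0.12 without knockdown replicate 2. At C1s1 knockdown replicate 2 had 0.544 of the lower of the other 2 knockdown libraries. Only 0.336% of 9516 genes with a mean of at least 100 counts were as low or lower there. Of its exonic sequence 18.4% lies opposite the antisense gene Gm16567, which had 0 counts in every library.

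C1s2 (ENSMUSG00000079343, chromosome 6, 124624625 to 124636085, minus strand) had the largest fold difference of the 8 tested entries. From 3.10, 1.64 and 0.923 CPM in the controls it went to 13.6, 15.7 and 14.1 CPM after knockdown. The lowest knockdown library was thus far above the highest control library. The means were 1.88 ± 1.09 and 14.5 ± 1.13 CPM (SD, n = 3 each), a 7.91-fold difference (log2 fold change 2.98, SE 0.377) past the threshold. It passed in all 6 fits that left out 1 library, at log2 fold changes of 2.64 to 3.51, the highest of them without control replicate 1 (11.4-fold).

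The second entry named C1s2 (ENSMUSG00000107554, chromosome 6, 124625166 to 124636049) lies within the first. It was counted 0, 33 and 23 times in the controls and 61, 14 and 12 times after knockdown. Knockdown replicate 1 was the highest and control replicate 1 the lowest, and the groups overlapped. Its log2 fold change was 0.61 (SE 1.02) and did not pass, and without knockdown replicate 1 it was -0.50. The second entry held 57.9% and 60.5% of the counts of both entries in control replicates 2 and 3, 0 of 37 in control replicate 1 (95% interval up to 9.49%), and 22.8%, 5.60% and 5.48% after knockdown. The division between the entries therefore varied among libraries of 1 group.

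Summing both entries, a choice made after the data were seen, gave 3.10, 3.91 and 2.34 CPM in control and 17.6, 16.6 and 15.0 CPM in knockdown libraries. The summed log2 fold change was 2.41 (SE 0.210), still past the threshold, and 5.30-fold in place of 7.91-fold. The 3 control libraries lay closer together in the sum than in the first entry alone, and no knockdown library came near them.

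**Figure D2:**
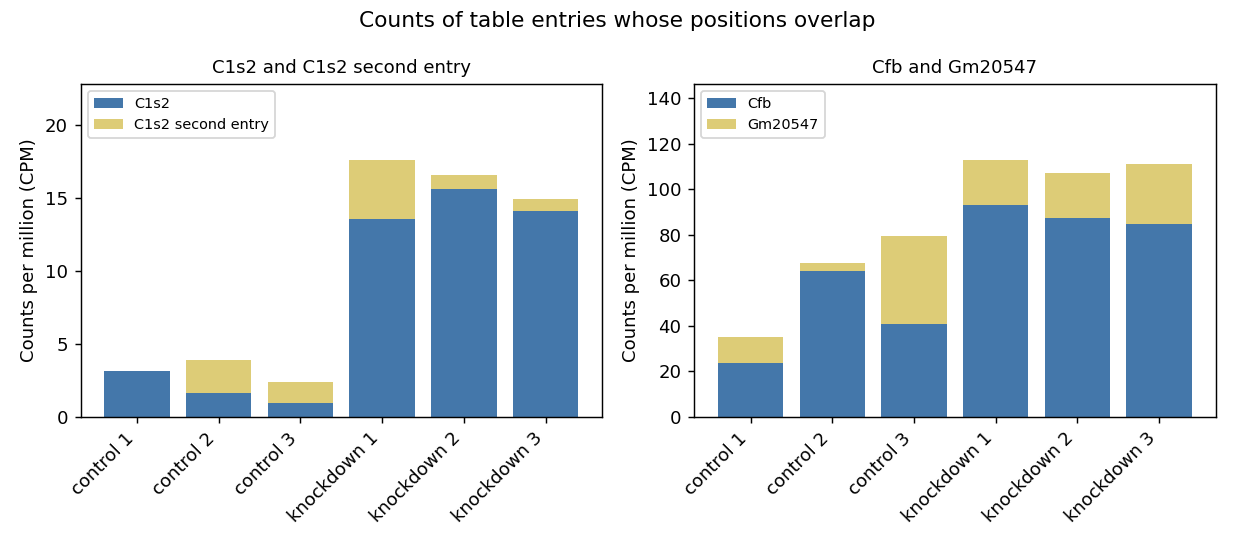
CPM in each library for the 2 C1s2 entries (left) and for Cfb and the overlapping readthrough gene Gm20547 (right), stacked from 0. The sum is higher in all knockdown libraries in both panels, while the division between the entries differs among control libraries.

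The first C1s2 entry made up 2.09%, 1.39% and 0.921% of its counts and those of C1s1 in the controls, and 9.59%, 18.4% and 9.76% after knockdown. The exact 95% intervals reached 2.87% at most in control libraries and began at 8.38% at the lowest in knockdown libraries, so the intervals of the groups did not meet. With both C1s2 entries counted the shares were 2.09%, 3.25% and 2.30% in control and 12.1%, 19.2% and 10.3% in knockdown libraries. The values that follow use the first entry. The value of 18.4% came from the library in which C1s1 was low, and without it the difference of means went from 11.1 to 8.21 percentage points. C1s1 counts were 1614 to 1735 in control and 1050 to 1951 in knockdown libraries while those of C1s2 went from 15 to 37 up to 207 to 236. Per length the share was 2.78% ± 1.10 in control and 21.4% ± 7.56 in knockdown cells (SD, n = 3 each), on the authors' gene lengths. In both pairs the less abundant copy had the larger log2 fold change, and the difference between copies was not tested: the log2 fold change was 2.98 for C1s2 against -0.12 for C1s1, and 1.69 for C1rb against 0.55 for C1ra.

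**Figure D3:**
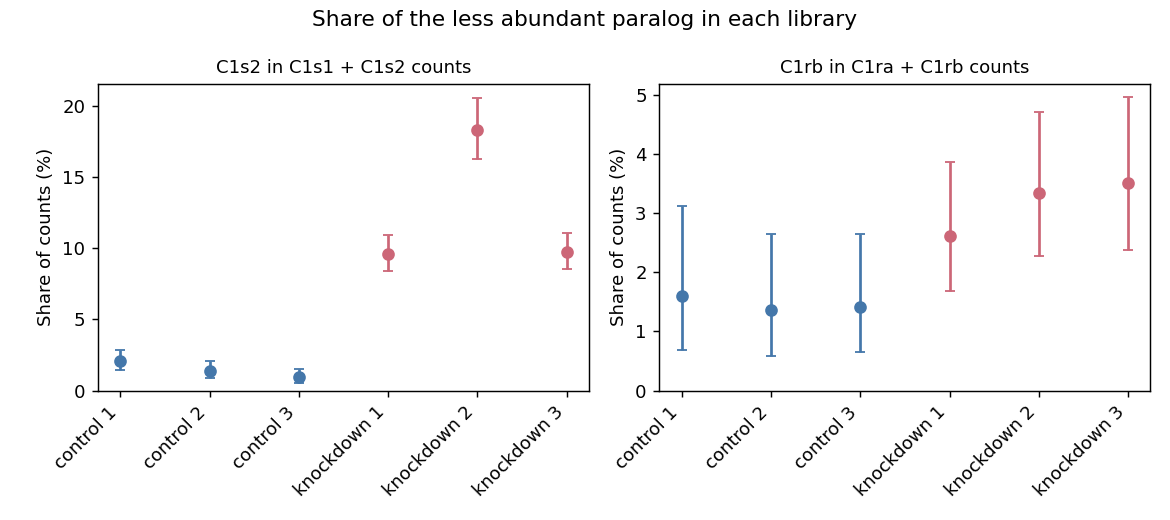
Share of counts, in percent, of C1s2 in C1s1 plus C1s2 (left) and of C1rb in C1ra plus C1rb (right) in each library, with exact 95% intervals that cover counting error only. C1s2, here its first entry without the second, stays at or below 2.09% in control libraries and reaches 9.59% to 18.4% in knockdown libraries. C1rb goes from at most 1.60% to at least 2.62%.

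C3, the component on which all pathways converge, was the only member past the threshold downward with all libraries in the fit. Its controls stood at 52.1, 124.2 and 115.9 CPM and its knockdown libraries at 40.6, 42.1 and 40.0 CPM. The knockdown libraries lay within a narrow band, whereas control replicate 1 was closer to them than to the other controls. The means were 97.3 ± 39.9 and 41.1 ± 1.13 CPM (SD, n = 3 each), 0.422 of the control level (log2 fold change -1.24, SE 0.312), past the threshold. It did not pass with limma on FPKM (-1.14 and -1.06) or with the replicate block (-1.15). Without control replicate 1 the log2 fold change was -1.55 (SE 0.060). In each of the other 5 fits that left out 1 library C3 did not pass, at log2 fold changes of -1.27 to -1.03. At C3 control replicate 1, whose mitochondrial share was 10.5%, had 0.450 of the lower of the other 2 controls, and 2.85% of 9516 genes were as low or lower there. The part of that library's makeup in the result was not tested beyond leaving it out. C3 is ENSMUSG00000024164 (chromosome 17, 57203970 to 57228136, minus strand).

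Cfb, the factor B gene that supplies the protease of the alternative pathway C3 convertase, did not pass although its groups did not overlap. Its controls stood at 23.6, 64.0 and 40.7 CPM and its knockdown libraries at 92.9, 87.4 and 84.9 CPM. The controls were spread widely, with replicate 1 lowest, and the knockdown libraries lay close together. The means were 42.7 ± 20.5 and 88.8 ± 3.61 CPM (SD, n = 3 each), with a log2 fold change of 1.05 (SE 0.328) outside the threshold. It passed without control replicate 1 (0.76) or without control replicate 2 (1.47), and with DESeq2.

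Cfb (ENSMUSG00000090231, chromosome 17, 34856374 to 34862518, minus strand) shares 79.5% of its exonic sequence with Gm20547. That model was at 11.3, 3.36 and 38.8 CPM in the controls and at 19.8, 20.0 and 26.2 CPM after knockdown. In control replicate 3 it held 48.8% of the counts of both, in control replicate 2 only 4.98%. Summed, a choice made after the data were seen, Cfb and Gm20547 had 34.9, 67.4 and 79.5 CPM in control and 112.7, 107.3 and 111.1 CPM in knockdown libraries. The summed log2 fold change was 0.87 (SE 0.280) and did not pass. In the sum control replicate 3 was above control replicate 2, the reverse of their order for Cfb alone, and control replicate 1 remained lowest.

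The rest of the pathway was measured from a list of complement genes by role, 51 entries in all. Of these, 23 had 0 counts in every library, 12 could be tested, 2 were higher and 3 lower, against 20.6% of all genes tested, and the median log2 fold change was 0.07 against -0.03 over all genes. Of the 3 lower genes Hc passed the count filter only through the control libraries, where it was high, which favours a difference. Without control replicate 1, 3 were higher and 4 lower of 12, against 52.1% of all genes in that fit. Cpn1 (edgeR adjusted p = 0.00741) and Cd93 were added. Cd93 passed the count filter only through the knockdown libraries, where it was high, so nothing is read from its call.

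Recognition molecules were almost silent. C1qa, C1qb and C1qc, the subunits of the protein that carries C1r and C1s, had 0 counts in all 6 libraries. Mbl1 also had 0, and Mbl2, a mannose-binding lectin gene, had 0 in each control library and 5, 3 and 6 counts in the knockdown libraries. Masp1, a protease of the lectin pathway, was the only recognition gene tested, with 7.37, 18.6 and 19.8 CPM in control and 20.4, 21.7 and 22.1 CPM in knockdown libraries (edgeR adjusted p = 0.347, log2 fold change 0.49, SE 0.341). Without control replicate 1, its lowest library, the log2 fold change of Masp1 was 0.17 (edgeR adjusted p = 0.159). C2, the partner of C4 in the classical convertase and a neighbour of Cfb, had 24.9 to 31.5 CPM in control and 28.1 to 30.0 CPM in knockdown libraries (0.07, SE 0.123, edgeR adjusted p = 0.721), although 48.3% of its 150-base windows lie in Gm20547 too. Cfp, the properdin gene, had 38, 0 and 9 counts in the controls and 9, 5 and 3 after knockdown.

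Of the terminal components only Hc, the gene of C5, could be tested. It stood at 5.28, 2.40 and 2.34 CPM in the controls and at 0.525, 1.39 and 0.820 CPM after knockdown, without overlap. The log2 fold change was -1.83 (SE 0.493), and -1.36 without control replicate 1, the highest library. Its entry into the test through the control libraries alone favours a difference, and Hc passed in only 1 of 6 fits with a library left out. C6, C8a and C8b had 0 counts throughout.

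Soluble regulators changed in both directions. Clu, the gene of clusterin, which binds the terminal complex, was by far the most abundant gene of the pathway, with 257 ± 31.9 FPKM in control cells. It fell from 1662, 1345 and 1355 CPM to 740, 773 and 607 CPM (edgeR adjusted p = 0.00665, log2 fold change -1.03, SE 0.144). No knockdown library reached a control library, and the call held in all 6 fits with a library left out. C4bp, the C4b-binding protein gene, rose from 1.34, 2.81 and 2.95 CPM to 6.89, 8.42 and 8.89 CPM (edgeR adjusted p = 0.0119, log2 fold change 1.76, SE 0.308) and passed in 4 of 6. Cfi, the factor I protease that cleaves C3b and C4b, had 43.7 ± 5.84 and 47.5 ± 2.21 CPM (edgeR adjusted p = 0.533), and Cpn1, which inactivates anaphylatoxins, 64.8 ± 8.46 and 56.9 ± 2.62 CPM (edgeR adjusted p = 0.309).

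On the membrane, neither tested regulator passed. Cr1l, the rodent regulator Crry, had 56.8 ± 13.7 and 59.5 ± 5.50 CPM (edgeR adjusted p = 0.826), and Cd59a, which blocks the terminal pore, 13.9 ± 8.03 and 7.96 ± 1.25 CPM (edgeR adjusted p = 0.197), where control replicate 1 was high at 23.4 CPM. Among receptors C3ar1, the receptor for the C3a fragment, rose from 1.26, 1.37 and 1.35 CPM to 2.76, 2.65 and 3.14 CPM (edgeR adjusted p = 0.0196, log2 fold change 1.11, SE 0.229) and passed in 1 of 6 fits with a library left out. C5ar1, C5ar2, Cr2, Itgax and Vsig4 had 0 counts in every library.

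**Figure D4:**
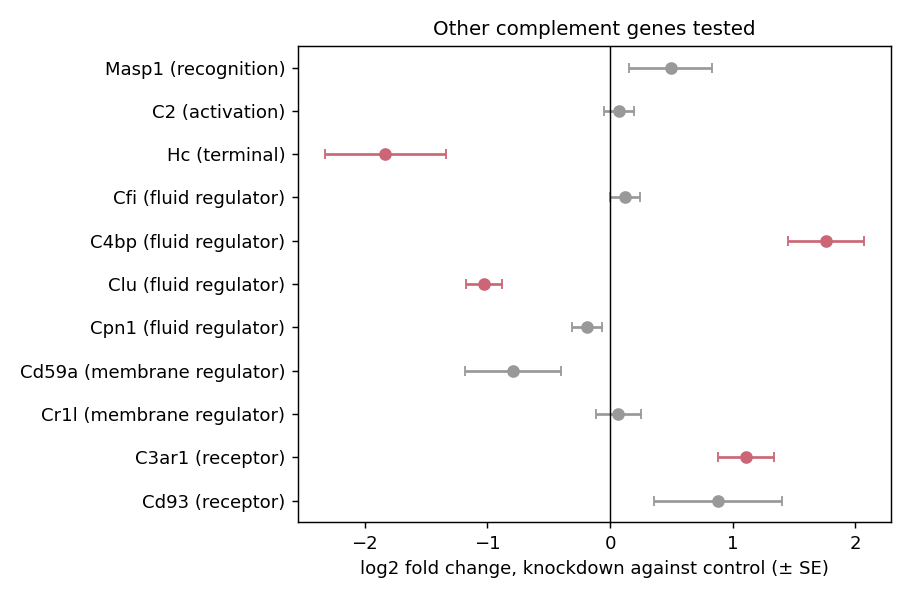
Log2 fold change of knockdown against control with its standard error for 11 of the 12 other complement genes that could be tested, with the role of each in brackets; red marks edgeR adjusted p below 0.05. C4bp and C3ar1 lie to the right of 0 among the red points and Hc and Clu to the left.

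The C1 genes sit together on chromosome 6, and C4b and Cfb in the major histocompatibility region of chromosome 17. Of 57 other entries within 100 kb of a member, 30 could be tested, 1 was higher and 2 were lower, against 20.6% of all genes called, 9.92% upward and 10.7% downward. Pex5, a peroxisomal import receptor gene near C1rl and C1ra, rose by 0.43 on the log2 scale (SE 0.109, edgeR adjusted p = 0.0367), with a call in 2 of 6 fits that left out a library. Ube2l6, the ISG15-conjugating enzyme gene near Serping1, fell by 0.85 on the log2 scale (SE 0.210, edgeR adjusted p = 0.0338), with a call in 2 of 6. Neu1, a lysosomal sialidase gene near Cfb, also fell by 0.85 (SE 0.238, edgeR adjusted p = 0.0481), with a call in 1 of 6, and by 0.52 without control replicate 1.

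The genes whose log2 CPM followed a member most closely over the 6 libraries were found by Pearson's r among 10884 genes with a mean of at least 2 CPM. For C1s2 they were the calcineurin subunit gene Ppp3ca (r = 0.997), the cyclin gene Ccnt2 (0.997) and the protein kinase C gene Prkce (0.997). For C3 they were Acbd3 (0.999), the coatomer gene Copb1 (0.999) and the cohesin gene Smc1a (0.999). These values describe 6 libraries in 2 groups, which share the contrast and the low or high position of control replicate 1, and differ in size: the log2 fold change was 0.83 for Ppp3ca against 2.98 for C1s2.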

How the data were processed

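The deposited count table holds whole-number read counts per gene, and a second table holds FPKM values that the authors made from them. HISAT2 2.0.5 and featureCounts 1.5.0-p3 stand in the submitters' processing notes beside the build mm10, without their roles. No source used here gives the annotation, the strand setting or the treatment of multi-mapping reads. All per-sample columns were used.

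The tests used edgeR 4.0.16 under R 4.3.3 on the counts: filterByExpr, TMM scaling, and a quasi-likelihood model with group as its only term over all 6 libraries. Adjusted p-values (Benjamini-Hochberg) cover 11975 genes, with a threshold of 0.05. The SE is the log2 fold change divided by the square root of F. CPM per library uses library totals, and group means ± SD are TMM-scaled. The procedure was tested on simulated data. Depth, at 11933736 to 16248346 counts per library, sets a floor of 0.185 to 0.251 CPM.

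Coordinates are those of the table. Transcripts, strand and overlap come from GENCODE M21, promoters from RefSeq. Coding sequences were aligned with Biopython 1.88. Named were all members, Zfp207, listed pathway genes past the threshold (the 2 most abundant where none passed), neighbours within 100 kb past the threshold, and the 3 genes most like C1s2 and C3. Of the listed pathway genes past the threshold 1 is counted but not reported here. Other genes were named for their role or their counts after values were seen. The members and lists were chosen with earlier results of these data known. Alternatives were RLE, upper-quartile and total-count scaling, 2 other filters, DESeq2 1.42.0, limma 3.58.1 on log2(FPKM + 0.1) and log2(FPKM + 1), a replicate block, and leaving out each library.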

Additional observations from a re-analysis of the deposited data

How the results depend on the processing

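The labels do not say whether same-numbered libraries were prepared together. Their deviations from the group means correlated weakly, at 0.0091, 0.032 and 0.046, and each library correlated best with its own number. The fit with a replicate block called 987 genes against 2466, and 2 members (C1s2 and C1ra) and 2 other complement genes against 5 each. With 1 library left out the counts ranged from 534 to 6313 for all genes, 1 to 6 for members and 1 to 7 for other complement genes. The highest counts came without control replicate 1 and the lowest without knockdown replicate 3, or equally 2 for both complement counts. DESeq2 called 3238 genes and 6 members, Cfb among them. Under the other scalings, filters and limma fits 4 or 5 members were called. The share of C1s2 rose by 18.7 percentage points on FPKM against 11.1 on counts, where C1s1 is divided by 5126 bases and C1s2 by 2668, and by 8.21 to 12.6 points with 1 library left out. For C1rb the range was 1.53 to 1.97 points. With 1 library left out the log2 fold change of C1s1 ranged from -0.27 to 0.12, positive without control replicate 1 (0.03) or knockdown replicate 2 (0.12), and that of the second C1s2 entry from -0.50 (without knockdown replicate 1) to 1.34. The cause of these changes was not tested. C1s2 kept its direction and call under all 16 alternatives run for it. Depth limits Serping1, C4b and C4a, whose counts lie near the floor.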

Other observations

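Acute-phase genes of the liver, many of which share inducers with C3 and Cfb, were mostly at or near 0 counts. Of 20 listed entries 5 had 0 counts in every library, 4 could be tested and 1 was higher, against 20.6% of all genes called. Without control replicate 1, 5 could be tested and 2 were higher, against 52.1%. Fgb, the fibrinogen beta chain gene, rose from 86.1, 153.7 and 153.7 CPM to 229.0, 226.7 and 228.9 CPM (edgeR adjusted p = 0.0468, log2 fold change 0.81, SE 0.225), and passed in 1 of 6 fits with a library left out, the one without control replicate 1 (0.58). Hpx, the haemopexin gene, stood at 13.8, 71.1 and 66.0 CPM in the controls and at 91.2, 79.1 and 82.6 CPM after knockdown (edgeR adjusted p = 0.356), and passed without control replicate 1 (log2 fold change 0.30, edgeR adjusted p = 0.0135). Saa1, Saa2, Orm1, Orm2 and Crp, classical acute-phase genes, had at most 4 counts in any library.

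Of 16 transcription factors and signalling genes known to act on complement or acute-phase genes, 2 were higher and 1 lower, a share close to the 20.6% of all genes. Without control replicate 1, 4 were higher and 2 lower, against 52.1% of all genes. Added in that fit were Socs3 (log2 fold change 0.41, edgeR adjusted p = 0.00802), Cebpa (0.28, edgeR adjusted p = 0.0373) and Rela (-0.57, edgeR adjusted p = 0.000278). Il6ra, the interleukin 6 receptor gene, rose from 11.6 ± 1.21 to 37.9 ± 2.30 CPM (SD, n = 3 each, log2 fold change 1.70, SE 0.125, edgeR adjusted p = 0.00153), with a call in all 6 fits that left out a library. Irf1, an interferon-responsive factor gene, rose by 0.64 on the log2 scale (SE 0.099, edgeR adjusted p = 0.00865), with a call in 4 of 6. Nr1h4, the gene of the bile acid receptor FXR, fell from 14.5 ± 1.14 to 6.37 ± 0.792 CPM (SD, n = 3 each, log2 fold change -1.19, SE 0.150, edgeR adjusted p = 0.00523), with a call in all 6. With all libraries in the fit Stat3, Cebpb and Hnf4a had edgeR adjusted p of 0.425, 0.264 and 0.927. Without control replicate 1 these were 0.613, 0.0543 and 0.453.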
